A study of Mus musculus with 15 samples.

Results

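The luminal and basal keratins of the mammary gland, together with plakoglobin (Jup) and desmoplakin (Dsp), were examined in RNA-seq counts of 4T1 cells, a mouse mammary carcinoma line. The 10 genes were the rows of the count table with the symbols Krt5, Krt7, Krt8, Krt14, Krt15, Krt17, Krt18, Krt19, Jup and Dsp, of 40402 rows in all. Wild type cells were left untreated or received blackberry extract (BLA), blueberry extract (BLU), blackberry gold nanoparticles (BLA-A) or blueberry gold nanoparticles (BLU-A), with treatment begun 24 h after seeding. No library of gold particles without extract was analysed here. Each of the 5 conditions had 3 deposited columns of counts.

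Those 3 columns differed by less than the sampling noise in every condition, with a chi-square per degree of freedom of 0.0951 to 0.475, and were counted as 1 library of 25613778 to 26956442 counts. Each condition was therefore taken as 1 sample, and no comparison between 2 conditions had a replicate check. The intervals given here are 95% intervals that cover counting error only. The paper instead counts n as biological replicates, 3 where not specified. That the columns are 1 library is inferred from their spread and is not stated in the labels. Each column also carried its own batch label, so that batch and condition cannot be told apart. The 5 epithelial markers, which include Krt8 and Krt18, were above 10 CPM (counts scaled to a common library size) in at least 1 library each, with a summed level of 813 to 1425 CPM. None of the 5 leukocyte, 4 endothelial or 2 adipocyte markers reached 10 CPM in any library, and 1 of the 5 fibroblast markers, Pdgfra, did at 86.0 to 102 CPM. The BLA-A library stood apart from the others in its scaling. Its TMM factor (the trimmed mean of M values, which corrects library size for composition) was 0.905, against 1.01 to 1.03 in the other 4. Scaling by total counts instead lowered the median log2 fold change of all genes in BLA-A from -0.01 to -0.18.

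Keratins are the intermediate filament proteins of epithelial cells, and a type I keratin pairs with a type II keratin to form the filament. In the mammary gland Krt8 (type II) and Krt18 (type I) mark the inner luminal cells, often with Krt7 (type II) and Krt19 (type I), while Krt5 (type II), Krt14 and Krt17 (both type I) mark the outer basal and myoepithelial cells. Krt15 is a type I keratin of basal epithelial cells. Desmoplakin ties keratin filaments to desmosomes, the spot junctions between cells, and plakoglobin is a plaque protein of both desmosomes and adherens junctions.

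In all 5 conditions the luminal keratins were present and the basal keratins were at or near 0. Of the 10 genes, 6 passed the filter of at least 1 CPM in at least 1 library, as did 17647 of all genes, and these 6 were Krt18, Krt8, Krt7, Krt19, Jup and Dsp. Per kilobase of annotated exons, the untreated levels ran in the order Krt18 (398 CPM per kb), Krt8 (141 CPM per kb), Krt7 (32.5 CPM per kb), Jup (11.3 CPM per kb), Dsp (8.57 CPM per kb) and Krt19 (6.19 CPM per kb). Per kilobase of the whole gene, introns included as in the counting, the order was the same at lower levels, with 149 for Krt18, 35.4 for Krt8, 11.9 for Krt7, 3.20 for Jup, 1.76 for Dsp and 1.46 for Krt19. It was also the same per kilobase of the canonical transcript, a length added after seeing the data, where Krt7 stood at 56.0 CPM per kb and Jup at 30.4 CPM per kb. Over the 5 conditions the ranges of Krt18 (314 to 479 CPM per kb of exons) and Krt8 (89.6 to 222) overlapped with no other, while those of Krt7 (19.4 to 39.9), Jup (10.5 to 20.3), Dsp (8.15 to 12.3) and Krt19 (4.47 to 24.3) did overlap. Within each of the 5 libraries, however, Krt7 was above Jup and Jup above Dsp under all 3 lengths. Dsp was above Krt19 in 3 of the 5 libraries, and these neighbours had no constant order.

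**Figure D1:**
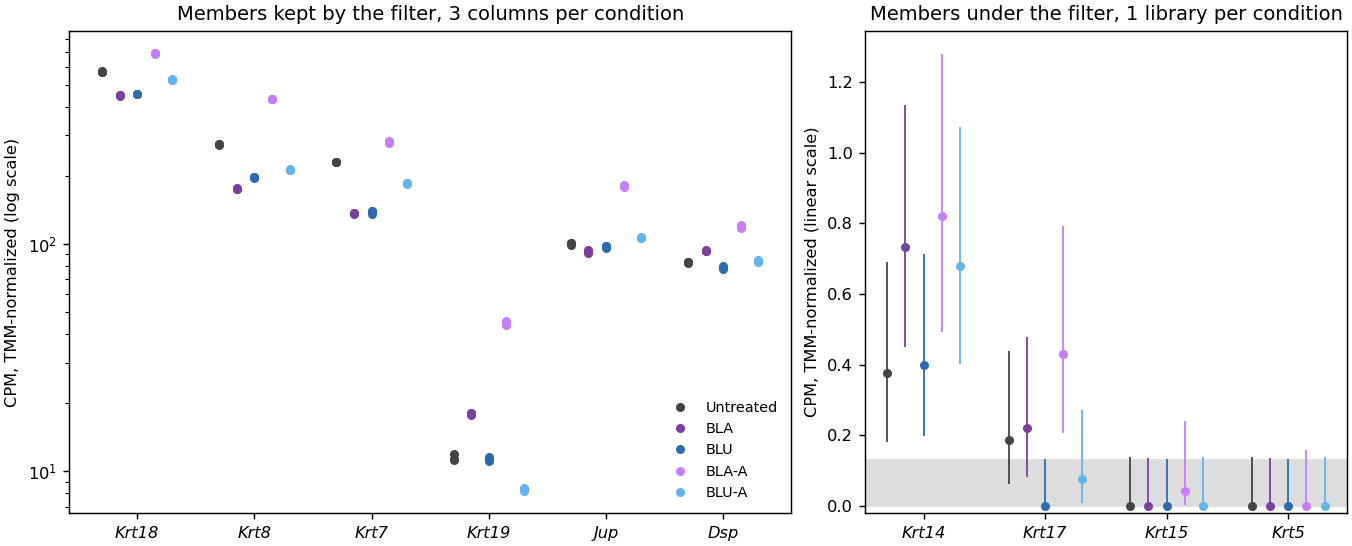
Left, level of the 6 genes kept by the filter, in TMM-normalized CPM on a log axis, with 1 point for each of the 3 deposited columns per condition; right, level of the 4 genes under the filter on a linear axis, with 95% Poisson intervals of the 1 library per condition. The gray band reaches the highest CPM equivalent of 3 counts (0.129), and the BLA-A points are the highest of the 5 conditions for each of the 6 genes on the left.

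Krt5 had 0 counts in every library, which allows a level of up to 0.109 to 0.129 CPM by the limit of 3 counts, while the upper ends of the Poisson intervals are at 0.134 to 0.159 CPM. Krt15 had 1 count in the BLA-A library and 0 elsewhere. Krt17 had 5 counts in untreated cells, 6 with BLA, 0 with BLU, 10 with BLA-A and 2 with BLU-A, that is 0.188, 0.220, 0, 0.431 and 0.0755 CPM. The Poisson interval of the untreated library overlapped with that of every treated library. Krt14 had 10 counts in untreated cells, 20 with BLA, 11 with BLU, 19 with BLA-A and 18 with BLU-A, or 0.375, 0.734, 0.399, 0.820 and 0.679 CPM. All 4 treated values of Krt14 were above the untreated one, but the interval of each ratio held 1, from 1.06 (0.410 to 2.79) for BLU to 2.18 (0.966 to 5.26) for BLA-A. No difference from untreated cells in Krt5, Krt14, Krt15 or Krt17 was detectable at this depth. Krt14 and Krt17 are close in sequence to each other and to Krt16, so reads at such low counts may be shared among them.

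Krt8 and Krt18 are neighbours on chromosome 15. On GRCm39, in GENCODE M39, Krt8 spans 101905133 to 101912917 on the minus strand and Krt18 spans 101936615 to 101940462 on the plus strand. Krt7 lies on the same chromosome at 101308924 to 101328194, plus strand. These 3 keratins had the same direction against untreated cells in each of the 4 treatments, and their promoters are shown for that reason. RefSeq promoter sequences (GRCm38.p6, from 250 bases before to 50 after the transcript start) were matched for 7 of the 10 genes and not for Krt15, Krt17 and Krt19. They are chr15:102004293-102004592 on the minus strand for Krt8, chr15:102027966-102028265 on the plus strand for Krt18 and chr15:101412153-101412452 on the plus strand for Krt7. By the shift of Krt18 between the builds, the Krt7 window falls inside the GENCODE span of Krt7 and not at its start. By the same shift, the transcript start used for Krt8 also lies inside its GENCODE span. Offsets for Krt8 therefore do not count from the GENCODE start. Capitals mark matches on either strand to an AP-1 motif (TGANTCA), a GC box (GGGCGG) or a TATA box (TATAAA), where overlapping matches run together.
Krt8: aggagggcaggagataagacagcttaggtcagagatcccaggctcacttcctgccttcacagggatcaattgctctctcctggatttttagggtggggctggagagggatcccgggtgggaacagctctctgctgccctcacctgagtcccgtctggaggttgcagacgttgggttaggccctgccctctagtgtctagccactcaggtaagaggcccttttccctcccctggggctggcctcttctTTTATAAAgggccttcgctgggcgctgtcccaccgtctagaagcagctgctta
Krt18: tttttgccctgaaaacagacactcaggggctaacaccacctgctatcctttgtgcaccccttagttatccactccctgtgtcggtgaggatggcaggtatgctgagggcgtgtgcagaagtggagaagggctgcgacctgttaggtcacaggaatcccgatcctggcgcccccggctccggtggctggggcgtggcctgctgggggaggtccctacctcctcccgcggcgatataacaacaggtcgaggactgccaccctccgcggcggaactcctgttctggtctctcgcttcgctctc
Krt7: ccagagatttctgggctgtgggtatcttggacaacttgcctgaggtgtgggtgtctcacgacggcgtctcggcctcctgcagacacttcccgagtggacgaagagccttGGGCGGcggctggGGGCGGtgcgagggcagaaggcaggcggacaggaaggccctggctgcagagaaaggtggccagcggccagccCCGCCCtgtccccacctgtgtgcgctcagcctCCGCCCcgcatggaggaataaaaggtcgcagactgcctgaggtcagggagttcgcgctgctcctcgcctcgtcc
Counted from the transcript start at 0, Krt8 held TATA box matches that began at -3 and -1 on opposite strands. Krt7 held GC boxes at -141, -128, -56 and -24, and Krt18 held none of the 3 motifs in this window. Among the other matched genes, Jup had 2 GC boxes and Dsp had 4, whereas Krt5 and Krt14 had no match to any of the motifs. Over all 32851 promoters of that table, 35.7% held a GC box, 13.6% a TATA box and 7.81% an AP-1 motif. None of the 3 motifs was in all of the Krt8, Krt18 and Krt7 windows.

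Krt18, the most abundant of the 10 genes, was at 572 CPM in untreated cells, 451 with BLA, 458 with BLU, 689 with BLA-A and 526 with BLU-A. It was lower than in untreated cells in 3 treatments and higher in BLA-A. The ratios to untreated cells were 0.789 (0.770 to 0.808) for BLA, 0.800 (0.781 to 0.819) for BLU, 1.20 (1.18 to 1.23) for BLA-A and 0.920 (0.899 to 0.941) for BLU-A.

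Krt8, the type II partner of Krt18, was at 275 CPM in untreated cells, 175 with BLA, 196 with BLU, 434 with BLA-A and 212 with BLU-A. The order of the 5 libraries was the same as for Krt18, but the range was wider. The ratios were 0.637 (0.614 to 0.661) for BLA, 0.713 (0.688 to 0.739) for BLU, 1.58 (1.53 to 1.63) for BLA-A and 0.770 (0.743 to 0.797) for BLU-A.

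Krt7, the second type II keratin of simple epithelia here, was at 229 CPM in untreated cells, 136 with BLA, 138 with BLU, 281 with BLA-A and 185 with BLU-A. The libraries again ranked BLA-A, untreated, BLU-A, BLU and BLA from highest to lowest. Its ratios were 0.595 (0.571 to 0.620) for BLA, 0.603 (0.579 to 0.628) for BLU, 1.23 (1.18 to 1.27) for BLA-A and 0.808 (0.778 to 0.839) for BLU-A. Krt7 overlaps the noncoding gene Gm671 on the other strand over 1269 bases. Gm671 was at 12.7 CPM in untreated cells, 16.1 with BLA, 13.3 with BLU, 10.1 with BLA-A and 19.5 with BLU-A. Reads were counted by strand, and Gm671 was opposite to Krt7 in direction in all 4 treatments.

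Krt19, a type I keratin with a short tail that is found in luminal and simple epithelia, was at 11.5 CPM in untreated cells, 18.0 with BLA, 11.4 with BLU, 45.0 with BLA-A and 8.30 with BLU-A. Unlike the other 3 luminal keratins it was higher in BLA than in untreated cells, and BLA-A was far above the other 4 libraries. The ratios were 1.56 (1.35 to 1.81) for BLA, 0.992 (0.845 to 1.17) for BLU, 3.92 (3.45 to 4.47) for BLA-A and 0.723 (0.605 to 0.863) for BLU-A. The 3 BLA-A columns were at 45.6, 45.6 and 44.0 CPM. Krt19 lies on chromosome 11 at 100031636 to 100039491, minus strand, close to Krt15 at 100022584 to 100026775 and Krt14 at 100093988 to 100098490, which stayed at or near 0. Its log2 range over the 5 libraries, 2.37, was the widest of the 6 genes kept, where Krt8 had 1.31, Krt7 1.04, Jup 0.95, Krt18 0.61 and Dsp 0.59.

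**Figure D2:**
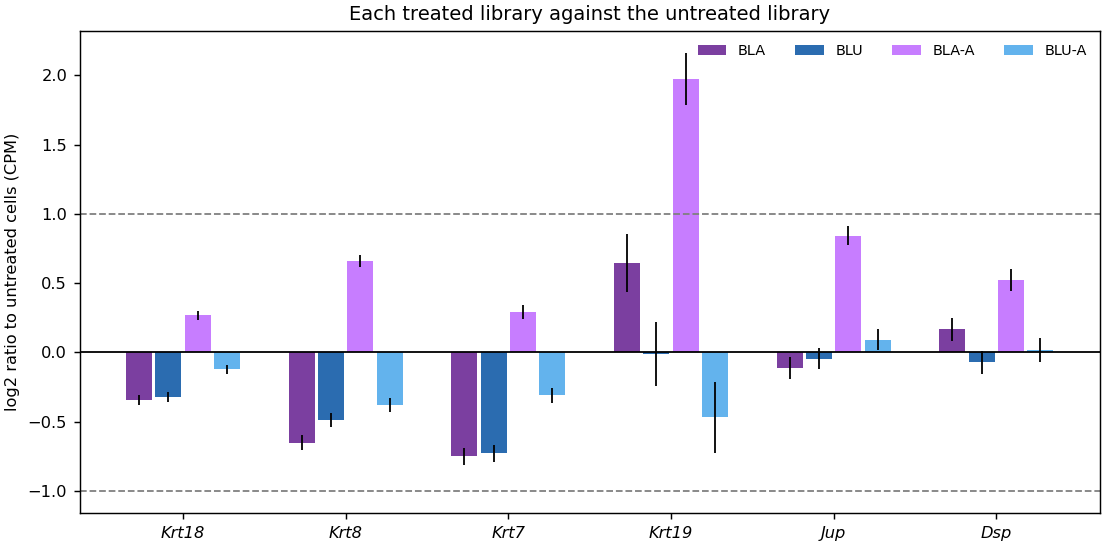
log2 ratio of TMM-normalized CPM in each treated library to the untreated library for the 6 genes kept, with 95% exact conditional binomial intervals for counting error and dashed lines at 1 and -1. All 6 bars of BLA-A are above 0, and only that of Krt19, with a ratio of 3.92, passes the upper dashed line.

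The plaque genes differed little from untreated cells except in BLA-A. Jup, on chromosome 11 at 100259784 to 100291103, minus strand, was at 100.3 CPM in untreated cells, 92.9 with BLA, 97.4 with BLU, 180.1 with BLA-A and 107 with BLU-A. The ratio was 1.79 (1.71 to 1.88) for BLA-A and 0.926 to 1.07 for the other 3 treatments. Dsp, on chromosome 13 at 38335230 to 38382553, plus strand, was at 83.1 CPM in untreated cells, 93.4 with BLA, 79.1 with BLU, 119 with BLA-A and 84.1 with BLU-A. Its ratio was 1.44 (1.36 to 1.52) for BLA-A and 1.12 (1.06 to 1.19) for BLA. The intervals for BLU and BLU-A held 1.

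Against untreated cells, a log2 fold change over 1 in size, on CPM plus 0.5, was reached by 0 of the 6 genes in BLA, where 16.5% of all genes kept reached it, and by 0 in BLU, where 10.3% did. In BLA-A it was reached by 1 gene, Krt19, with a log2 fold change of 1.93, against 20.9% of all genes kept. Of those genes 40.8% were higher, 28.4% under scaling by total counts and 55.6% with a pseudocount of 2 CPM. Among genes with a mean of at least 10 CPM, 768 were higher and 461 lower. In BLU-A it was reached by 0 of the 6, against 7.85%. The shares of all genes kept include genes of low level, while each of the 6 had a mean of at least 10 CPM. Of 9765 such genes, 353 were past 1 upward with BLA and 157 downward. The counts were 194 and 40 with BLU, then 74 and 10 with BLU-A. With so few of 9765 past 1, a count of 0 of the 6 does not set these genes apart. Among the 9765 genes with a mean of at least 10 CPM, 7.86% were over 1 upward in BLA-A, and Krt19 ranked 73 from the top. On the same scale Jup ranked 1148, Krt8 1770, Dsp 2387, Krt7 3576 and Krt18 3734. The median log2 fold change of the 6 genes was -0.23 for BLA, -0.20 for BLU, 0.59 for BLA-A and -0.21 for BLU-A, beside medians of -0.01, -0.01, 0.10 and 0.01 over the genes with a mean of at least 10 CPM. These 4 comparisons share the untreated library. When total counts were used for scaling, the BLA-A fold changes of Krt18 and Krt7 were 0.08 and 0.10 in place of 0.27 and 0.29.

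The nanoparticles were compared with the plain extract of the same berry. Between BLA-A and BLA, 3 of the 6 genes were over 1, against 24.5% of all genes kept, and all 6 were higher in BLA-A. Of all genes past 1 there, 47.1% were higher, 36.2% under scaling by total counts, 52.9% with DESeq2 size factors and 62.1% with a pseudocount of 2 CPM. Among genes with a mean of at least 10 CPM, 1135 were higher and 575 lower. The log2 fold changes were 1.31 for Krt8, 1.30 for Krt19 and 1.04 for Krt7, then 0.95 for Jup, 0.61 for Krt18 and 0.35 for Dsp. The ratios for the first 3 were 2.48 (2.39 to 2.56), 2.51 (2.25 to 2.80) and 2.06 (1.98 to 2.15). The count became 2 without Krt7 under scaling by total counts, and 4 with Jup under DESeq2 size factors. Between BLU-A and BLU, 0 of the 6 were over 1, against 6.76% of all genes kept, and the values ran from -0.43 for Krt19 to 0.42 for Krt7. Of the genes with a mean of at least 10 CPM, 28 were past 1 upward there and 7 downward.

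**Figure D3:**
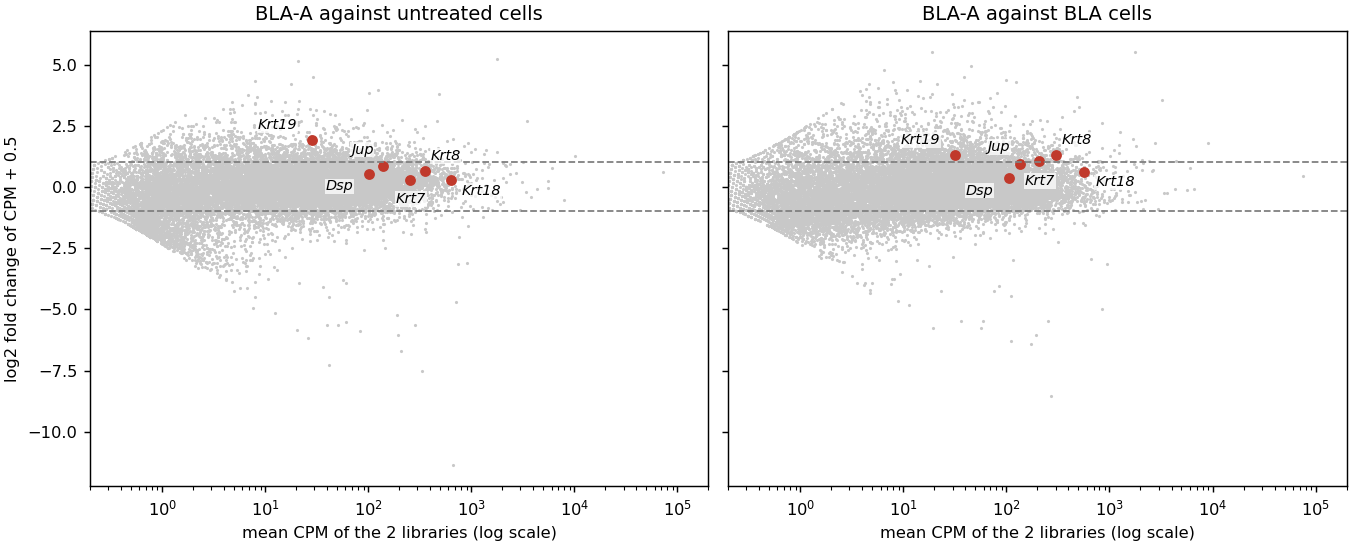
log2 fold change of TMM-normalized CPM plus 0.5 against the mean CPM of the 2 libraries (log axis) for the 17647 genes kept, in gray, with the 6 genes in red; the left panel sets BLA-A against untreated cells and the right panel BLA-A against BLA (328 and 685 genes with a mean under 0.2 CPM lie off the axis). Krt19 is the only red point above the dashed line at 1 on the left, and Krt8, Krt19 and Krt7 are above it on the right.

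The keratins did not move in proportion to each other, as ratios of counts within a library showed, which do not depend on scaling. The ratio of Krt8 to Krt18 counts was 0.481 (0.468 to 0.495) in untreated cells, 0.389 (0.376 to 0.402) with BLA, 0.429 (0.416 to 0.443) with BLU, 0.630 (0.615 to 0.646) with BLA-A and 0.403 (0.391 to 0.416) with BLU-A. The BLA-A interval lay above the other 4 and the untreated interval above those of the remaining 3. Krt19 counts per Krt18 count were 0.0201 in untreated cells, 0.0398 with BLA, 0.0249 with BLU, 0.0654 with BLA-A and 0.0158 with BLU-A. Per Krt8 count, however, Krt19 was at 0.102 (0.0931 to 0.112) in BLA and 0.104 (0.0972 to 0.111) in BLA-A, which overlapped, against 0.0417 in untreated cells. Krt7 per Krt8 count was lowest in BLA-A, at 0.647 (0.628 to 0.668), and was 0.833 (0.805 to 0.862) in untreated cells. The ratio of Jup to Dsp counts was 1.51 (1.44 to 1.58) in BLA-A, 0.994 (0.941 to 1.05) in BLA and 1.21 to 1.27 in the other 3 libraries.

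**Figure D4:**
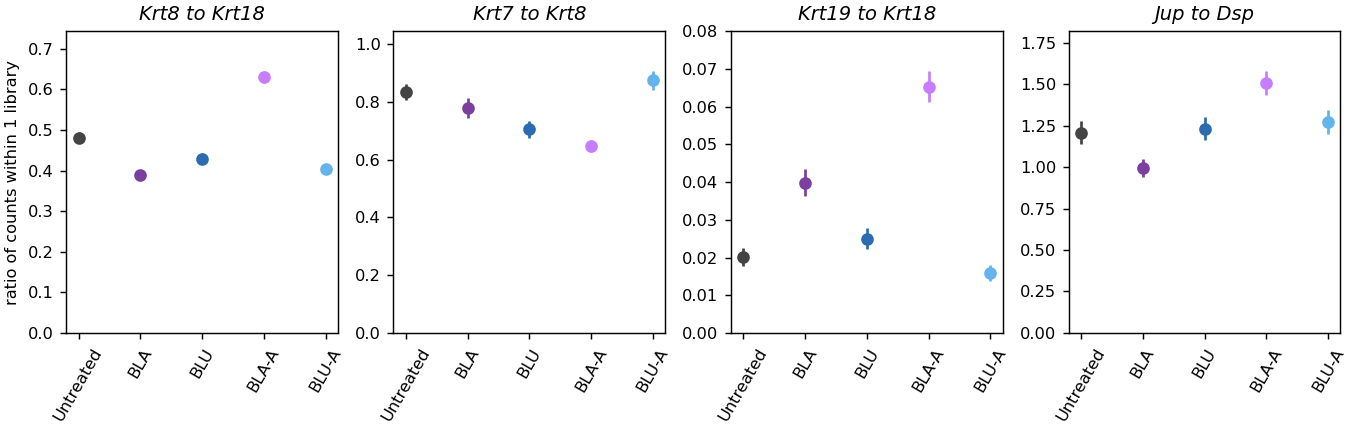
Ratio of counts of 2 genes within 1 library, on linear axes from 0, for 4 pairs in the 5 conditions, with 95% intervals for counting error (hidden by the point where narrower). BLA-A is the highest point for Krt8 to Krt18 (0.630), Krt19 to Krt18 (0.0654) and Jup to Dsp (1.51) and the lowest for Krt7 to Krt8 (0.647).

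The 4 treated libraries as 1 group were tested against the 1 untreated library with edgeR's quasi-likelihood test, where the spread comes from the treated libraries alone. None of the 6 genes was called at a Benjamini-Hochberg adjusted p under 0.05, where 4 genes (0.0227%) of all genes kept were. None of the 6 had an unadjusted p under 0.05, as 481 of all genes did, and DESeq2's Wald test also called 0 of the 6. The smallest unadjusted p was that of Krt19, 0.368, with a log2 fold change of 0.85 (SE 0.88) and an edgeR adjusted p of 0.999, higher in 2 of the 4 treated libraries. The treated libraries here span 2 berries and 2 forms, and for Krt7, Krt8 and Krt18 3 of them were below and 1, BLA-A, was above the untreated library. Without the BLA-A library, the log2 fold change was -0.50 for Krt8 and -0.58 for Krt7. Leaving out BLA, BLU or BLU-A instead gave 0.03, 0.04 and 0.01 for Krt8, and -0.19, -0.15 and -0.26 for Krt7. Neither gene was called in any of these fits.

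Other genes of the same structures were counted from lists. Of 46 other keratins, 7 were kept, and the only one to reach 10 CPM was Krt80, a type II keratin 40881 bases from Krt7. Krt80 was at 23.2 CPM in untreated cells, 22.2 with BLA, 21.7 with BLU, 51.6 with BLA-A and 21.2 with BLU-A, a log2 fold change of 1.14 in BLA-A. Within 50000 bases of the 10 genes, 35 other genes had a row of counts and 9 reached 10 CPM. Beside Krt80 and Gm671 these were Snrnp48 near Dsp, Eif4b near Krt18, Gm35853 near Krt7, and Hap1, Nt5c3b, Klhl11 and Eif1 near Jup. Of these 9, Krt80 and Nt5c3b (-1.24) were past a log2 fold change of 1 in BLA-A, in opposite directions.

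Of the 16 other desmosome genes 10 were kept. In BLA-A 0 of them were over 1 upward and 1 was downward, with a median of 0.30. Pkp3 (plakophilin 3, a plaque protein) was at 17.7 CPM in untreated cells and 35.2 in BLA-A, and Dsg2 (a desmosomal cadherin) at 30.2 and 45.3. Pkp4 was higher in all 4 treatments, at 146 CPM in untreated cells, 203 with BLA, 207 with BLU, 198 with BLA-A and 194 with BLU-A. Perp, a membrane protein of desmosomes, was at 29.5 CPM in untreated cells and 16.1 in BLA, a log2 fold change of -0.85. The gene that was downward was Dsg3, a desmosomal cadherin of stratified and basal epithelia, named after its values were seen. Dsg3 had 188 counts (7.05 CPM) in untreated cells, 2 in BLA-A and 0 in BLA, BLU and BLU-A.

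All 9 adherens junction genes were kept, and in BLA-A 2 were over 1 upward and 1 downward, with a median of 0.42. The downward gene, Cdh3 (P-cadherin, named after its values were seen), had 23 counts (0.863 CPM) in untreated cells and 2 (0.0863 CPM) in BLA-A. Among those that reached 10 CPM, the largest changes were in the cell adhesion molecules Nectin2 (27.3 CPM in untreated cells, 81.3 in BLA-A) and Nectin1 (33.5 and 88.5), followed by Cdh1, E-cadherin (124 and 232), and Vcl, vinculin (251 and 437). All 9 hemidesmosome genes, which anchor keratins to the basement membrane, were kept too, with 0 downward and a median of 0.49 in BLA-A. Lamb3, a laminin chain, was at 104 CPM in untreated cells and 241 in BLA-A, a log2 fold change of 1.20, while the integrin Itgb4 was at 119 and 207 and the laminin chain Lama3 at 15.9 and 26.8. In the other 3 treatments 0 genes of either list were past 1 in either direction.

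Among 19 luminal markers and regulators 15 were kept, and in BLA-A 3 were over 1 upward and 2 downward, with a median of 0.44. Cldn4, a tight junction claudin, was at 17.0 CPM in untreated cells, 13.6 with BLA, 12.9 with BLU, 119 with BLA-A and 17.5 with BLU-A. The epithelial transcription factor Elf3 was at 2.51 CPM in untreated cells and 15.0 in BLA-A, and the surface protein Cd24a at 155 and 339. Epcam, an epithelial adhesion molecule, went the other way, at 68.9 and 39.7, a log2 fold change of -0.79 that is not past 1. The 2 downward genes, named after their values were seen, were Prlr (78 counts in untreated cells, 2 in BLA-A) and Pgr (25 and 5). Among 12 basal and myoepithelial genes 9 were kept, with 1 upward, 2 downward and a median of -0.46 in BLA-A. Sparc, a matrix protein, was at 94.1 CPM in untreated cells and 233 in BLA-A. Mylk, a myosin kinase, was at 12.1 and 7.33, a log2 fold change of -0.68 that is not past 1. The 2 downward genes, named after their values were seen, were Trp63 (62 counts in untreated cells, 11 in BLA-A) and Myh11 (51 and 8). The median over all genes kept was -0.01 in that comparison, so these lists are read only as counts beside the 20.9% of all genes past the threshold.

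Of the 12 other intermediate filament genes 6 were kept and 0 were past 1 in any treatment under TMM scaling. Vimentin (Vim), the filament of mesenchymal cells, was at 3921 CPM in untreated cells, 3869 with BLA, 3350 with BLU, 2051 with BLA-A and 3472 with BLU-A. Vim was thus lowest in the library where the 6 keratin and plaque genes were highest, with a log2 fold change of -0.93. The lists were counted under TMM scaling only, while total counts lowered the BLA-A median of all genes kept from -0.01 to -0.18. Whether genes near the threshold in BLA-A, such as Vim, Krt80 (1.14) and Cd24a (1.13), are past 1 therefore depends on the scaling. The lamins Lmna and Lmnb2 were at 390 and 10.2 CPM in untreated cells and 657 and 16.3 in BLA-A, and nestin (Nes) was at 117 and 187. Fewer cells of a type and less RNA per cell cannot be told apart in bulk samples.

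**Figure D5:**
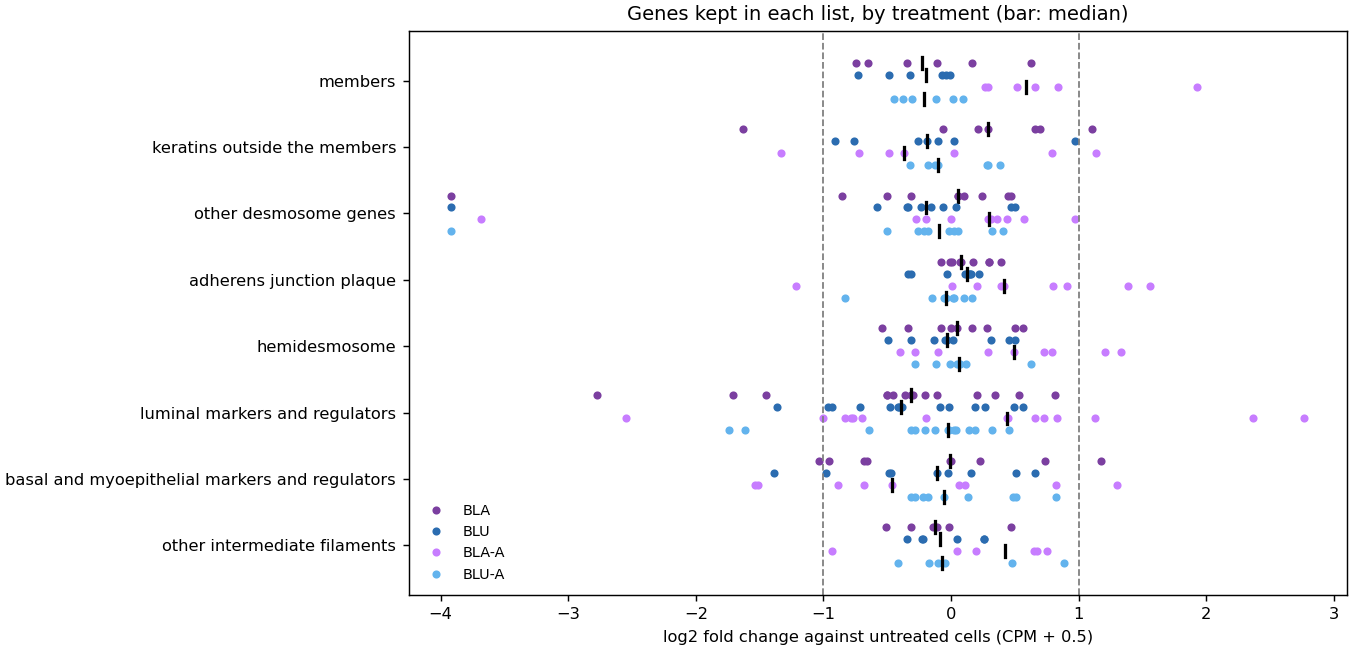
log2 fold change against untreated cells (CPM plus 0.5, horizontal axis) of the genes kept in each list, 1 point per gene and treatment, with black bars at the medians and dashed lines at 1 and -1. The members row holds the 6 keratin and plaque genes, whose BLA-A median is 0.59 while their other 3 medians are between -0.23 and -0.20.

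The genes whose pattern over the 5 libraries was nearest to that of Krt19, the member with the widest range, were sought among 9764 other genes with a mean of at least 10 CPM. Nearness was the Euclidean distance of mean-centred log2 values over 5 libraries. The nearest was Tmx2, at a distance of 0.20, then Gm29481 (0.35), Atf5 (0.35), Steap3 (0.43) and Slc2a1 (0.45). Tmx2, a thioredoxin-related membrane protein, was at 7.28 CPM in untreated cells, 9.95 with BLA, 6.46 with BLU, 24.0 with BLA-A and 4.57 with BLU-A. Slc2a1, the glucose transporter GLUT1, was at 91.4, 179, 123, 471 and 102 CPM in the same order. With 5 libraries and 1 of them far above the rest, such a distance is a description of these libraries.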

How the data were processed

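Total RNA of 4T1 cells was sequenced, and raw counts for each gene were deposited by the authors. Per the study's methods, reads were aligned to GRCm39 (RefSeq) with STAR and counted by strand on features of type gene, introns included, in OmicsBox. The authors also deposited tables of their own treated against untreated tests and of gene set enrichment, which were not used here.

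The 3 columns of a condition were averaged and rounded, since they differed by less than sampling noise. With 5 libraries of 25613778 to 26956442 counts, a gene entered if any library had 1 CPM or more, CPM was normalized with TMM (edgeR 4.0.16, R 4.3.3), and 0.5 was added to CPM before the log2 fold change. A log2 fold change over 1 in size was counted, without a test. Ratios carry exact conditional binomial intervals and low levels exact Poisson intervals, at 95%. The 4 treated libraries were tested against the untreated one with edgeR's quasi-likelihood test. The procedure was tested on simulated data.

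The members and lists were chosen with earlier results of these data known. Beside the members, the text names up to 4 genes per list with at least 10 CPM in 1 library and the largest change in any treatment, neighbours within 50000 bases that reached 10 CPM, and the 5 genes nearest in pattern to the member with the widest range. One gene that this rule names is not reported here. Gene positions and lengths are from GENCODE M39 on GRCm39. Alternatives were other scalings (DESeq2 1.42.0 size factors, total counts), filters, pseudocounts and lengths, each column left out, and the 15 columns taken as separate samples. The time of harvest is not given in the sources used here.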

Additional observations from a re-analysis of the deposited data

How the results depend on the processing

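Of 280 alternative fold changes of single genes, 270 moved by less than their counting interval or not at all. Another 10 moved further and 0 reversed a called direction. A sign differed in 6, all of values near 0. Krt5, at 0 throughout, could not move, and wide intervals held the other low keratins. Only Krt19 in BLA-A was past 1 and could have been counted as reversed. The moves further were in BLA-A, except that of Krt18 in BLU with DESeq2 size factors. In BLA-A each of the 6 genes kept moved further under scaling by total counts. Of 20 levels per kilobase under another length, 13 moved and 7 did not. The counts of the 6 genes past a log2 fold change of 1 stayed the same under every alternative, except in BLA-A against BLA, where the 3 became 2 under scaling by total counts and 4 with DESeq2 size factors or without a filter. Leaving out each of the 3 columns left that count at 3. With the 15 columns taken as separate samples and the replicate block, 6 of the 6 genes were called between treated and untreated cells, as were 14182 of all genes. That test counts as replicates the columns that were taken here as 1 library. The replicate numbers did not pair the samples (mean correlation of deviations -0.000893 over 30 pairs). DESeq2's Wald test called 17 genes, and edgeR called 45 without the BLA-A library, in place of 4, with none of the 6 genes among them.

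Over all genes, the number past a log2 fold change of 1 with a pseudocount of 2 CPM was 942 for BLA, 400 for BLU, 1859 for BLA-A, 208 for BLU-A, 2382 for BLA-A against BLA and 137 for BLU-A against BLU, in place of 2904, 1816, 3694, 1385, 4322 and 1193. With 0.1 CPM it was 2742 for BLU, 2366 for BLU-A and 2109 for BLU-A against BLU. It differed by less than 1.5 times without a filter, and by more for BLU (2965), BLU-A (2627) and BLU-A against BLU (2350) when the 15 columns were tested as samples. Depth limits the 4 low keratins, where each library had at most 20 counts. With 1 library per condition, the spread between cultures is unknown.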
